A study of Mus musculus with 4 samples.

Results

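The nuclear-encoded subunits of the mitochondrial respiratory chain and ATP synthase, with the assembly factors of complex I, were examined in the cerulein-injured mouse pancreas. Members were all genes of the array with exactly 1 symbol beginning with Nduf, Uqcr, Cox4i, Cox5, Cox6, Cox7, Cox8 or Atp5, plus Sdha, Sdhb, Sdhc, Sdhd and Cyc1, each represented by its brightest row. The rule took 90 of 22180 genes. Of these, 88 encode a protein: 34 subunits and 8 assembly factors of complex I, 4 subunits of complex II, 8 of complex III, 17 of complex IV and 17 of complex V. The other 2 are the pseudogenes Atp5c1-ps and Uqcrh-ps1. Complexes were assigned by symbol, so Ndufa4, now counted among the subunits of cytochrome c oxidase, stands with complex I. So does Ndufa4l2, named after it, and Cox7a2l, a factor that joins complexes, is counted with complex IV.

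The RNA was extracted from adult pancreas at 8 weeks of age and day 5 of cerulein treatment, and was hybridised to 2 arrays for wild type and 2 for IFRD1 knockout mice, called Ifrd1 null here. All 4 mice received cerulein, a cholecystokinin analog that over-stimulates acinar cells, at 100 µg/kg in 6 injections a day on alternate days, and no untreated sample is among them, so the comparison is between genotypes within injured tissue. Ifrd1 encodes a transcriptional co-regulator, and the sources used here do not say how the null allele was made or which sex the mice had. Levels are the authors' deposited values, read as log2, and a difference is Ifrd1 null minus wild type with limma's standard error (SE).

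Ifrd1 itself read 9.04 and 9.07 for wild type and 6.99 and 7.09 for the null, so it was lower in both arrays labelled as knockout. The null values still lay above the medians of those arrays (4.15 and 4.13). What this remaining signal reflects was not tested. All 21 measured acinar markers were above the median of every array. The X-inactivation transcript Xist had levels of 2.56 and 3.54 for wild type and 10.2 and 9.58 for the null, and the Y-linked Uty had 6.41 and 6.40 against 2.25 and 2.36, so genotype and the sex read from these genes cannot be told apart in any value below. The null arrays differed in cell markers: Ifrd1 null 1 minus Ifrd1 null 2 had a median of -0.56 over acinar, 0.65 over 13 macrophage, 1.23 over 8 B and plasma cell and 1.22 over 9 adipocyte markers. Other marker lists had medians on the same side of the wild-type mean in both null arrays: 11 of 12 duct markers (median -0.37) and 11 of 13 islet markers (-0.30) had a lower mean in the null, and 11 of 11 T and NK cell markers (0.36) a higher one. The part of these cells in the subunit values was not tested. In whole tissue, fewer cells of a type and less RNA per cell cannot be told apart.

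The respiratory chain passes electrons from NADH (complex I) and succinate (complex II) through ubiquinone, complex III and cytochrome c to oxygen at complex IV. Complexes I, III and IV pump protons across the inner mitochondrial membrane, and ATP synthase (complex V) lets them back to make ATP. Most subunits are encoded in the nucleus and a few of the core ones in mitochondrial DNA, and the latter are not analysed here. Acinar cells spend much ATP on making and secreting digestive enzymes, and mitochondrial failure is a known feature of cerulein pancreatitis.

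The subunit transcripts differed little between the genotypes. Over the 88 protein-coding members the median difference was -0.025, with a range from -0.38 for Ndufaf2 to 0.51 for Cox7b. Of them 15 differed by more than 0.2 and 3 by more than 0.3 (Cox7b, Ndufaf2 and Atp5o). None passed limma's test at an adjusted p under 0.05 over all genes (0 of 88, where the background is 0.00451% of all genes). The lowest adjusted p of a member was 0.721. The targeted gene Ifrd1 did not pass either, with a difference of -2.017 (limma adjusted p = 0.138), and the 1 gene that passed is sex-linked. A count of 0 at this threshold therefore says little about smaller differences. At unadjusted p under 0.05 there was 1 lower gene, Ndufa6, and 1 higher, Cox7b, where 3.63% of all genes were lower and 3.27% higher (6.91% in all). Among genes above the median level 5.41% were lower and 1.23% higher (6.64% in all). The 95% interval of the difference lay within 1.5-fold in either direction for 72 of the 88 (81.8%), against 60.5% of all genes and 67.1% of genes above the median level. It lay within 2-fold for 87. For those members a difference beyond these sizes is outside the interval. Smaller differences are within it and were not detectable with 2 arrays a group.

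Directions were mixed and followed the scaling of the arrays. In the null, 53 of the 88 had a lower mean (60.2%), where 52.6% of all genes and 67.3% of genes above the median level did, and 35 had a higher mean, where 47.2% and 32.6% did. Of the 76 members that are themselves above the median level 50 were lower (65.8%) and 26 higher, with a median of -0.032. Groups did not overlap for 18 lower and 11 higher members, or 29 of 88, beside 19.7% and 16.1% (35.8% in all) of all genes and 29.1% and 8.82% (37.9% in all) of genes above the median level. The shares of members lie near or between these backgrounds, and the members' median stood between that of all genes (-0.012) and that of genes above the median level (-0.070). With quantile normalization the split turned to 32 lower and 56 higher, and with cyclic loess to 30 lower and 58 higher. With arrays centred on their medians it was 56 lower and 32 higher. Genes above the median level were lower in 50.6% and 49.6% of cases with quantile normalization and cyclic loess.

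**Figure D1:**
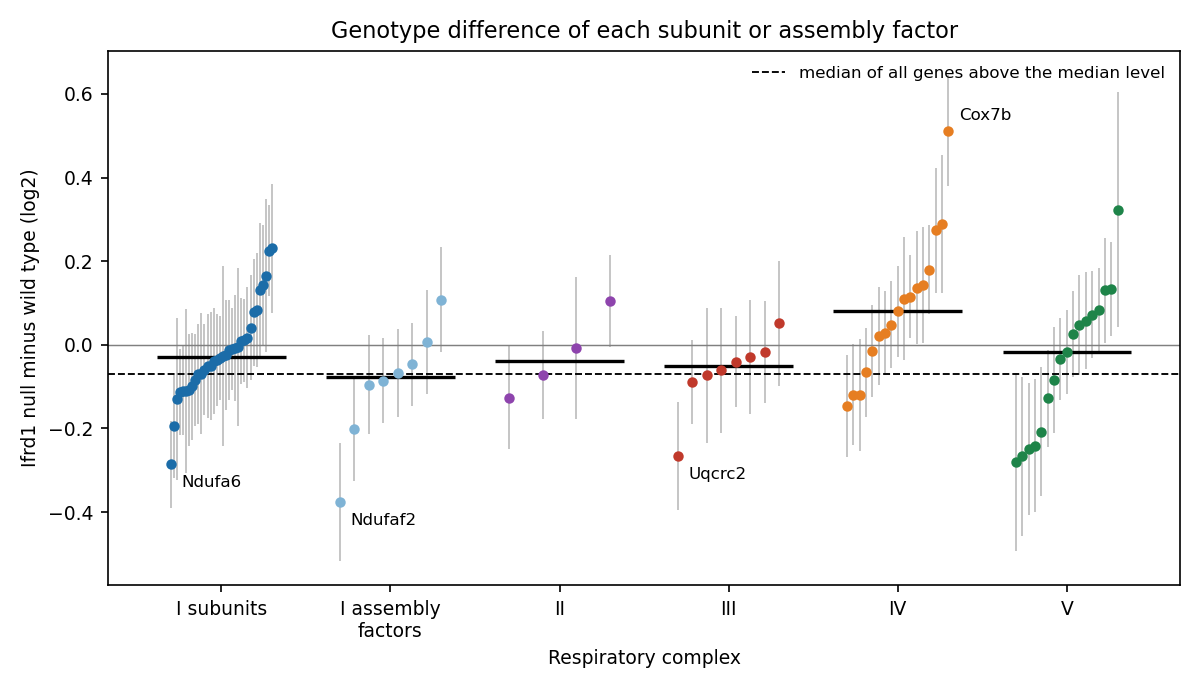
Each point is 1 protein-coding gene, grouped along the horizontal axis by complex. The vertical axis gives Ifrd1 null minus wild type (log2), the grey bars are limma's SE, the black lines are group medians and the dashed line is the median of all genes above the median level (-0.070). The group medians lie between -0.077 and 0.080, and Cox7b (0.51) and Ndufaf2 (-0.38) are the outermost points.

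**Figure D2:**
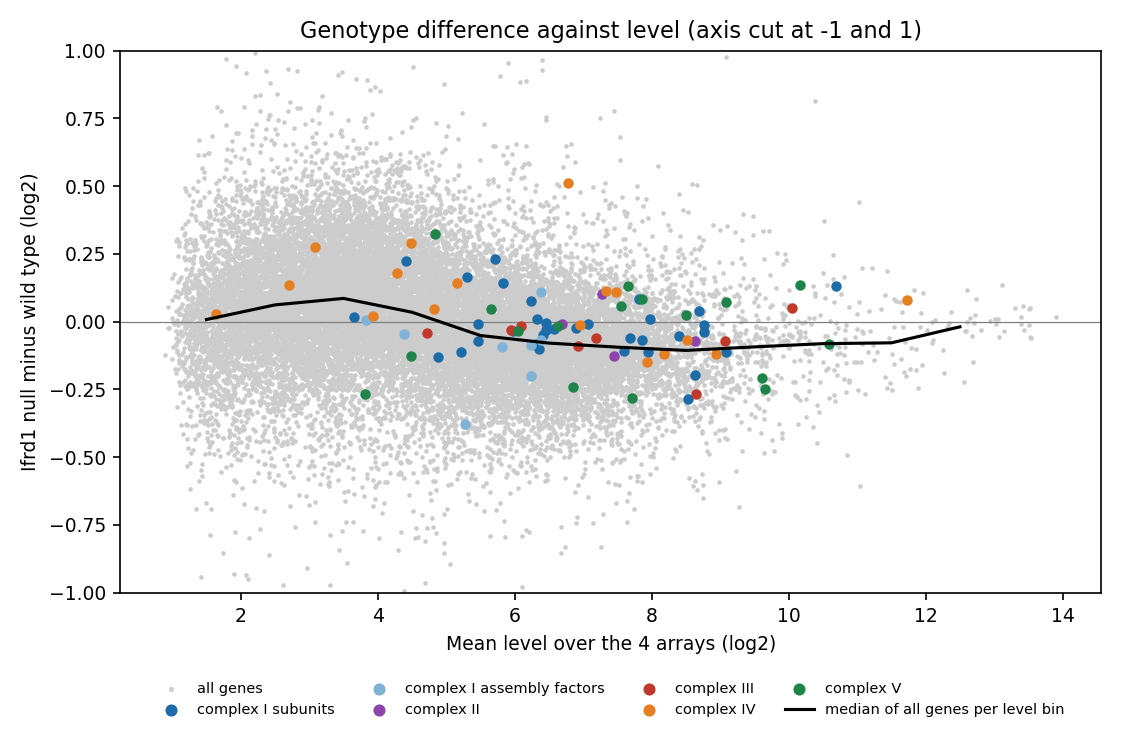
Genotype difference (vertical axis, log2) against mean level over the 4 arrays (horizontal axis, log2), for all genes in grey and the members in colour by complex. The black line joins medians of all genes in level bins of 1 unit, from 0.086 in the bin centred on 3.5 to -0.106 in that centred on 8.5; 46 genes beyond -1 and 1 are outside the axis. Members lie on both sides of that line. It is between -0.051 and -0.106 in the bins centred on 5.5 to 10.5. The members' median is -0.025 at all levels and -0.032 for the 76 above the median level.

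Complex I oxidises NADH and is the largest of the complexes. Its 34 subunits had a median difference of -0.029, with 23 lower and 11 higher and a range from -0.28 for Ndufa6 to 0.23 for Ndufb10. Among the lower ones are Ndufa4 (-0.110) and Ndufa4l2 (-0.113), placed here by symbol, both without overlap. The 6 measured catalytic core subunits (Ndufs1, Ndufs3, Ndufs7, Ndufs8, Ndufv1 and Ndufv2), which carry the flavin and iron-sulfur clusters or frame the quinone site, were all lower by a small amount (-0.010 to -0.11), and none had groups that did not overlap. This rested on Ifrd1 null 1: without that array 0 of the 6 were lower, 5 were higher and Ndufs1 was equal, and with quantile normalization and with cyclic loess 2 were. Ndufs8 shows the arrays behind it, with 7.97 and 8.02 in wild type, 7.63 in Ifrd1 null 1 and 8.14 in Ifrd1 null 2, so the null arrays lay on both sides of the wild type. Its counterparts had narrower ranges: Ndufv1 was at 7.71 and 7.71 against 7.58 and 7.72, and Ndufs7 at 8.77 and 8.78 against 8.66 and 8.86.

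Ndufa6, an accessory subunit of the matrix arm, was the complex I subunit with the smallest p. It stood at 8.62 and 8.71 in wild type and at 8.37 and 8.40 in the null. Both null arrays were below both wild-type arrays. The difference was -0.28 ± 0.10 (SE, 1.22-fold, limma unadjusted p = 0.0465, adjusted p = 0.721), and without each array in turn it was between -0.33 and -0.24. The unadjusted p was under 0.05 in 5 of 13 alternatives. Ndufc2 was at 8.67 and 8.78 against 8.63 and 8.44, and Ndufb3, a membrane-arm subunit, was at 4.36 and 4.23 against 4.52 and 4.52, again without overlap. Ndufb10 had the largest positive difference of the complex (0.23 ± 0.15), with 5.75 and 5.44 against 5.91 and 5.74, where the groups overlap. The brightest subunit row, Ndufb9, was at 10.6 and 10.7 in wild type and 10.6 and 10.9 in the null.

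The assembly factors Ndufaf1 to Ndufaf8 help build complex I and are not part of the finished enzyme. Their median difference was -0.077, with 6 of 8 lower, which was also the count with quantile normalization and with cyclic loess. Ndufaf2, a chaperone-like paralog of an accessory subunit, was at 5.60 and 5.32 in wild type and at 5.02 and 5.15 in the null, the lowest difference of all protein-coding members (-0.38 ± 0.14, 1.30-fold, limma unadjusted p = 0.0508, adjusted p = 0.722). Its groups did not overlap, and the difference was -0.24 without wild type 1 and -0.51 without wild type 2. Ndufaf7, a protein arginine methyltransferase, was at 6.27 and 6.39 against 6.23 and 6.04. Ndufaf4 lay the other way, at 6.36 and 6.30 against 6.33 and 6.55, with overlap. Ndufaf8, the brightest factor row, was at 6.44 and 6.40 against 6.31 and 6.40.

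Complex II, succinate dehydrogenase, also works in the citric acid cycle and has no subunit from mitochondrial DNA. The flavoprotein Sdha was at 8.65 and 8.68 in wild type and at 8.54 and 8.65 in the null, a difference of -0.072 ± 0.11. The iron-sulfur subunit Sdhb was at 6.56 and 6.84 against 6.54 and 6.84, so each genotype had 1 low and 1 high array. Sdhc, a membrane anchor, was at 7.18 and 7.26 against 7.27 and 7.39, with both null arrays higher by a narrow margin. The other anchor, Sdhd, was at 7.59 and 7.43 against 7.31 and 7.45. All 4 differences were between -0.13 and 0.10, with limma adjusted p from 0.811 to 0.994, and all 4 intervals lay within 1.5-fold.

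Complex III transfers electrons from ubiquinol to cytochrome c. Of its 8 members 7 were lower, with a median of -0.050 that was 0.019 with quantile normalization and 0.036 with cyclic loess. Uqcrc2, a core protein homologous to processing peptidases, stood apart: it read 8.82 and 8.73 for wild type and 8.39 and 8.62 for the null, a difference of -0.27 ± 0.13 (limma adjusted p = 0.737). Its groups did not overlap, and Ifrd1 null 1 was the lower of the null arrays; without that array the difference was -0.15. Its partner Uqcrc1 was at 9.17 and 9.05 against 8.86 and 9.22, where the null arrays lie outside the wild type on either side. The electron-carrying subunits gave no larger difference: cytochrome c1 (Cyc1) was at 6.97 and 6.96 against 6.85 and 6.90, and the Rieske protein Uqcrfs1 had a difference of -0.029 ± 0.14. Uqcrb, with the brightest row, was at 9.87 and 10.2 against 10.1 and 10.04.

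Complex IV, cytochrome c oxidase, had the only positive median of the 6 groups on the deposited scale (0.080, 12 of 17 higher). It stayed positive with the other scalings (0.065 to 0.084), where quantile normalization and cyclic loess also gave complexes I (subunits), II, III and V a positive median. Of the higher genes 7 are isoforms known from other tissues: Cox4i2 (lung), Cox6a2, Cox7a1 and Cox8b (heart, muscle or brown fat) and Cox6b2, Cox7b2 and Cox8c (testis). These 7 had a median of 0.14, and 4 of them (Cox6b2, Cox7b2, Cox8b and Cox8c) were below the median of every array, where signal above background is not shown. Genes at or below the median level had a median difference of 0.061, and 4211 of 11090 were lower. Without the 7 isoforms the complex split evenly, 5 lower and 5 higher, with a median of 0.033, and with 3 lower and 7 higher with quantile normalization and with cyclic loess.

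The isoform pairs of complex IV showed no exchange that the arrays could detect. Cox4i1, the common isoform of the subunit that regulates the enzyme by ATP binding, was at 8.33 and 8.14 in wild type and 8.21 and 8.02 in the null, while Cox4i2 was at 4.44 and 4.25 against 4.46 and 4.81. The 4 Cox4i2 values did not overlap by group, with a difference of 0.29 ± 0.17 (limma adjusted p = 0.761), and that difference was 0.12 without Ifrd1 null 2. Cox6a1, the brightest row of all members, was at 11.7 and 11.7 against 11.7 and 11.8, and Cox6a2 was at 4.801 on 3 arrays and 4.90 in Ifrd1 null 1. Cox7a2 had 7.55 and 7.28 against 7.43 and 7.62, and Cox7a1 had 4.14 and 4.25 against 4.36 and 4.38. Cox7a2l, a factor that joins complexes III and IV into supercomplexes, was at 6.96 and 6.95 against 7.02 and 6.87. For Cox8a the values were 9.07 and 8.92 against 8.81 and 8.94, and for Cox8b 2.80 and 3.10 against 3.16 and 3.29. Skeletal muscle markers, for tissue that also carries Cox6a2, Cox7a1 and Cox8b, were above the median of every array for 6 of 12, with medians from 4.20 to 4.38, and 4 of 6 brown fat markers were below every array median, with medians from 3.46 to 3.76. Ucp1, which defines brown fat, was between 3.18 and 3.34. The part of these tissues in the isoform values was not tested.

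Cox7b had the largest difference of all members. This small subunit of complex IV is encoded on the X chromosome. It stood at 6.50 and 6.55 in wild type and at 6.91 and 7.17 in the null, so that both null arrays lay above both wild-type arrays. The difference was 0.51 ± 0.13 (1.43-fold; 95% interval 0.16 to 0.87; limma unadjusted p = 0.0151, adjusted p = 0.721), and it was between 0.38 and 0.64 without each array in turn. The unadjusted p was under 0.05 in 9 of the 12 alternatives that fit the gene, and above it with the mean of its rows, without wild type 1 and without wild type 2. A dimmer row of the same gene did not repeat it, with 3.70 and 3.44 against 3.39 and 3.40 (-0.17), all below the array medians, and the mean of both rows gave a difference of 0.17. The other X-linked members had no clear direction, and their groups overlapped. Ndufb11 was at 5.02 and 4.88 against 4.58 and 5.06 (-0.13 ± 0.19), and Ndufa1 at 6.70 and 6.23 against 6.45 and 6.47 (-0.005 ± 0.19). The difference of Ndufa1 was positive with quantile normalization and with cyclic loess, and that of Ndufb11 was positive without Ifrd1 null 1. The other ubiquitous small subunits of complex IV were nearer to no difference, such as Cox6b1 (7.27 and 7.27 against 7.38 and 7.40) and Cox5a (8.10 and 7.91 against 7.81 and 7.90).

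**Figure D3:**
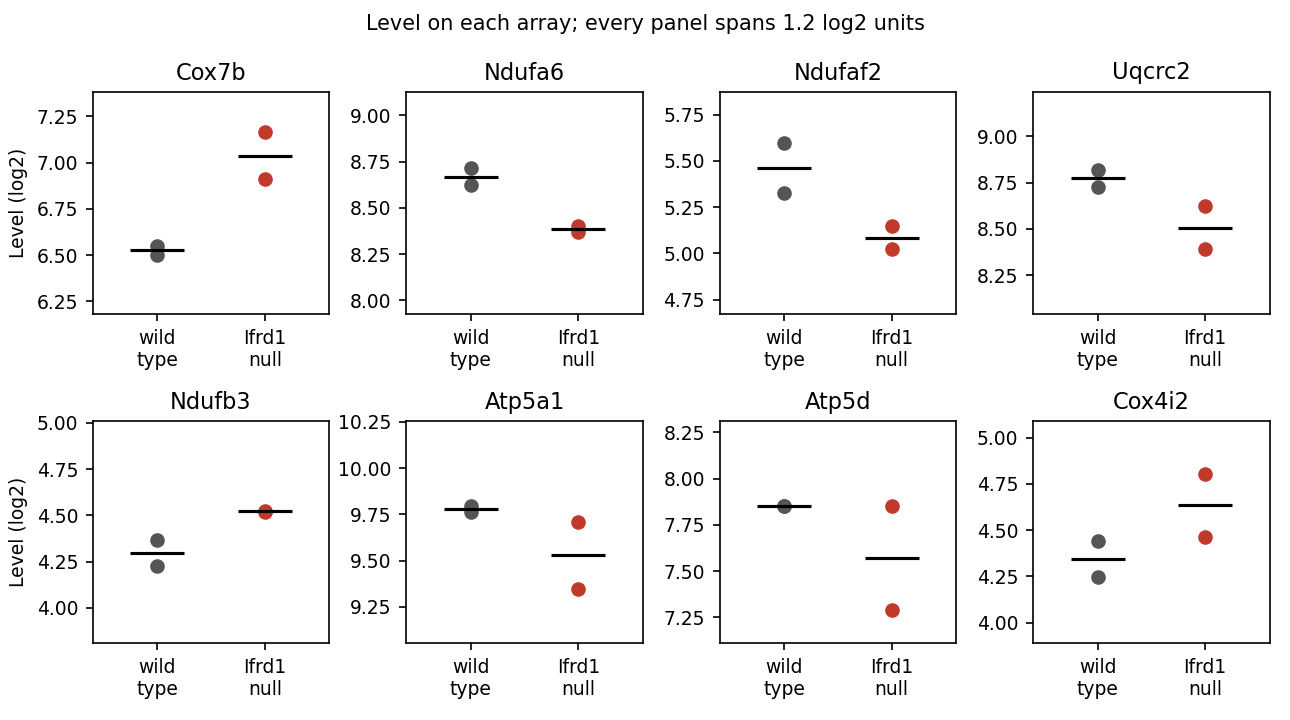
Level (log2, vertical axis) of 8 members on each array, with wild type in grey, Ifrd1 null in red and bars at the group means (n = 2 each). Every panel spans 1.2 log2 units. Groups do not overlap for Cox7b, Ndufa6, Ndufaf2, Uqcrc2, Ndufb3, Atp5a1 and Cox4i2, while Atp5d differs in Ifrd1 null 1 only.

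ATP synthase has a catalytic F1 head, a rotating ring of c subunits in the membrane and a peripheral stalk that holds the head still. All 5 F1 genes were lower, with a median of -0.24. Atp5a1 (alpha) was at 9.76 and 9.79 in wild type and at 9.35 and 9.71 in the null. Atp5b (beta), with the brightest row of the complex, was at 10.7 and 10.6 against 10.4 and 10.7. Atp5d (delta) was at 7.85 on every array except Ifrd1 null 1 (7.29), and its second row was lowest there too (6.83, against 7.14 to 7.22 elsewhere). Atp5e (epsilon) was lower in the other null array: 6.995 and 6.945 against 6.91 and 6.55, and its dimmer row gave 0.10 in place of -0.24. With the mean of all rows of a gene the F1 median was -0.084. Without Ifrd1 null 1 it was -0.017, with 3 of 5 lower and Atp5d equal, and with cyclic loess 3 of 5 were lower (median -0.15). The limma adjusted p of the 5 genes was between 0.762 and 0.938.

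The 3 genes of the c ring encode precursors of the same mature subunit. Atp5g1 was at 4.601 and 4.51 in wild type and 4.35 and 4.50 in the null. Atp5g2 was at 9.82 and 9.62 against 9.37 and 9.66, and its second row gave nearly the same difference (-0.20, against -0.21). Atp5g3 was at 6.65 and 6.65 against 6.65 and 6.61. Differences were -0.13, -0.21 and -0.017, and that of Atp5g3 changed sign under both quantile normalization (0.068) and cyclic loess (0.074).

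The peripheral stalk genes lay the other way from the F1 genes, 4 of 4 higher, with a median of 0.090, and 4 of 4 with each of the other scalings, but 2 of 4 without wild type 1 (median 0.018) and 3 of 4 without Ifrd1 null 2. With the mean of all rows of a gene the median was 0.036. Atp5o, which joins the stalk to the head, was at 4.29 and 5.05 in wild type and 4.89 and 5.10 in the null, a difference of 0.32 ± 0.28 that was -0.052 without wild type 1. Atp5h was at 10.2 and 10.02 against 10.2 and 10.3, with its dimmer row at -0.084. The b subunit Atp5pb was at 8.45 and 8.52 against 8.49 and 8.53, and Atp5j at 5.63 and 5.62 against 5.57 and 5.77. Of the 5 remaining membrane subunits 4 were higher (Atp5k, Atp5l, Atp5md and Atp5mpl, 0.058 to 0.13). Atp5j2 was lower, with 3.71 and 4.20 against 3.69 and 3.68, below the array median on 3 of 4 arrays. Whether F1 and stalk genes differ from each other was not tested, since genes are not replicates of the condition.

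The null arrays lay further apart than the wild-type arrays. The absolute gap between the arrays of a group had a median of 0.075 for wild type and 0.15 for the null over the 88 genes (0.14 and 0.17 over all genes), and the absolute genotype difference had a median of 0.083 (0.13 over all genes). Ifrd1 null 1 was the lowest of the 4 arrays for 40 of the 88, wild type 1 for 19, Ifrd1 null 2 for 16 and wild type 2 for 13, while Ifrd1 null 2 was the highest for 32. Tied values were counted for the first array in the order wild type 1, wild type 2, Ifrd1 null 1, Ifrd1 null 2. Ifrd1 null 1 was below Ifrd1 null 2 for 59 of 88 members (67.0%, where 50.0% of all genes and 46.9% of genes above the median level were), for 23 of 34 complex I subunits, 5 of 8 assembly factors, 4 of 4 in complex II, 4 of 8 in complex III, 11 of 17 in complex IV and 12 of 17 in complex V. This order of the null arrays was not particular to the members. It held for 16 of 17 citric acid cycle and pyruvate dehydrogenase, 12 of 14 glycolysis, 13 of 15 biogenesis regulator and 12 of 16 import and carrier genes. It also held for 50 of 68 mitochondrial ribosomal, 26 of 38 other assembly factor, 9 of 13 beta-oxidation and 5 of 9 other ATP synthase and electron carrier genes. Against the wild-type mean the members' median was -0.037 in Ifrd1 null 1 and 0.010 in Ifrd1 null 2. Acinar markers went the same way between these arrays, with -0.23 and 0.24, and macrophage markers the opposite way, with 0.21 and -0.39. Their part in the subunit values was not tested.

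**Figure D4:**
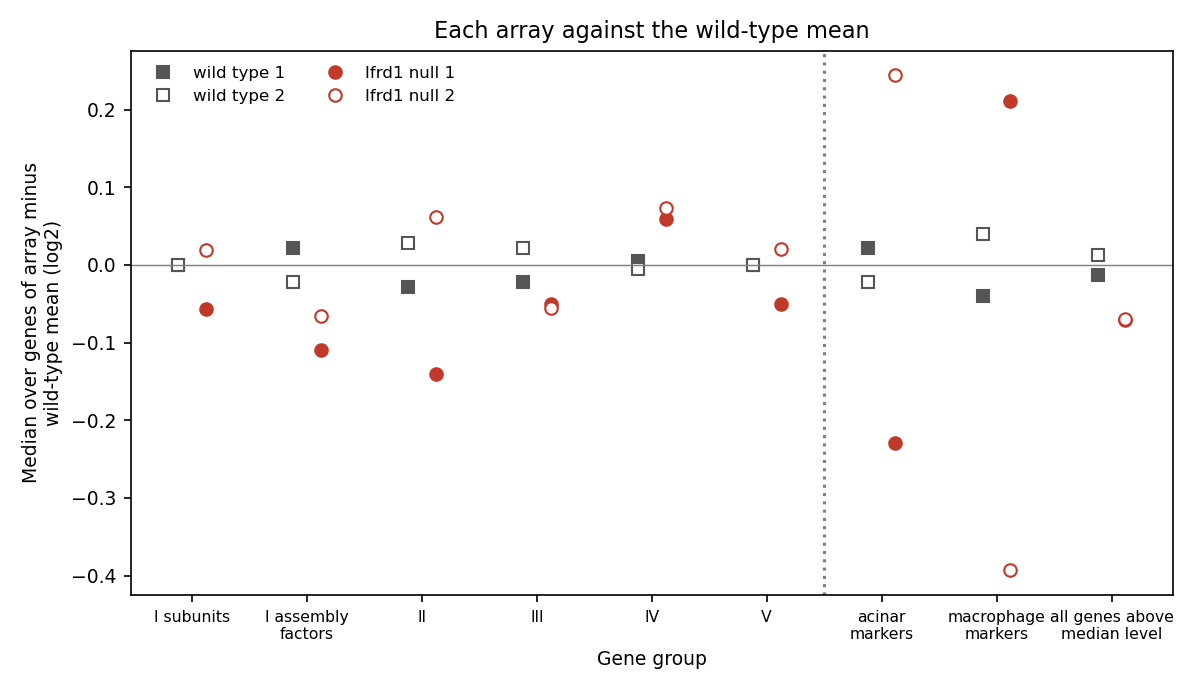
Median over the genes of each group of the array's level minus the wild-type mean (log2, vertical axis), for wild type (squares, the median of wild type 1 minus wild type 2 split evenly around 0) and Ifrd1 null (circles). For the 6 groups of members all points lie between -0.14 and 0.074, while acinar markers are at -0.23 and 0.24 and macrophage markers at 0.21 and -0.39 in Ifrd1 null 1 and Ifrd1 null 2.

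Some values limit what the rows can show. Of the members 12 carried the same value on 2 or more arrays (13.3%, against 14.1% of all genes), such as Ndufs1, at 6.48 on every array except Ifrd1 null 1 (6.42), which narrows the spread limma sees. For 9 members the array has 2 rows, and in 6 of these the rows differed in the sign of the difference. Many subunit genes have near-identical processed pseudogenes that can share probe sequence, and 10 further rows name a subunit together with another gene (Cox6c, Uqcr10, Ndufs6, Ndufb2 and Ndufb4 among them) and were left out by the rule. The pseudogene rows Atp5c1-ps (-0.44 ± 0.13; 2.25 and 2.43 against 1.83 and 1.98) and Uqcrh-ps1 (0.41 ± 0.28) were below the median of every array.

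The promoters of these genes carry a feature that the rule did not use. Nuclear respiratory factor 1 (NRF1) is a known activator of respiratory genes, and the core of its site, GCATGCGC, occurred on either strand in 12 of the 72 members with a promoter in RefSeq's GRCm38.p6 table (16.7%, against 4.23% of 15358 protein-coding genes of the array). The window runs from 250 bases before to 50 after the start. A gene counted where any of its listed starts held the letters; members had 1.07 windows each and all genes 1.22, and over windows the shares were 15.6% and 3.76%. Below are stretches upstream of the start for 1 such member each of complexes I, II, IV and V, with the motif in capitals (both overlapping matches of the palindrome where there are 2), and for Cox7b, the member with the largest difference, the bases just before the start, which hold no match.
Ndufa6: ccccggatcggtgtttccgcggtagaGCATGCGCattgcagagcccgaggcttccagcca
Sdhb: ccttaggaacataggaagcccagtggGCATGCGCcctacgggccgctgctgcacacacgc
Cox6a1: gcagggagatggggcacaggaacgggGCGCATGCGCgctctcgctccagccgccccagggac
Atp5g2: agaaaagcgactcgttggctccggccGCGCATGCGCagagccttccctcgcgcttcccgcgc
Cox7b: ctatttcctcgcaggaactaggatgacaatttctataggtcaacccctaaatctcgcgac

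These lie at chr15:82354341-82354400 (minus strand, Ndufa6), chr4:140961191-140961250 (plus, Sdhb), chr5:115349085-115349146 (minus, Cox6a1), chr15:102671054-102671115 (minus, Atp5g2) and chrX:106015640-106015699 (plus, Cox7b), each written 5′ to 3′ on the gene's strand. The motif began 83 bases before the start in Ndufa6 (position -83), at -54 in Sdhb, at -162 in Cox6a1 and at -42 in Atp5g2. The other members with it were Atp5k, Atp5l, Ndufa11, Ndufa8, Ndufaf4, Ndufaf5, Uqcr11 and Uqcrc1. Members with the NRF1 letters had a median difference of 0.024 and those without it -0.035, and among the former 5 of 12 were lower.

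Other letters searched on both strands gave these shares. CCGGAAG, the core of GABPA (NRF2), was in 19 of 72 (26.4%, against 13.3% of genes), and AANATGGCG, of YY1, in 10 (13.9% against 3.86%). TCAAGGTCA, of the estrogen-related receptor alpha, was in Atp5g3 and Sdhd (2.78% against 0.332%), and TGACGTCA, a cyclic AMP response element, in 3 (4.17% against 2.67%). Shares of general promoter elements were near those of all genes: GGGCGG in 47.2% against 51.8%, CCAAT in 41.7% against 41.9% and TATAAA in 11.1% against 14.4%. A match is a description of letters and not a bound site. The factors themselves were measured: Nrf1 was at 5.58 and 5.72 in wild type and 5.58 and 5.43 in the null, Gabpa at 6.82 and 6.91 against 6.75 and 6.83, Yy1 at 7.95 and 7.95 against 7.99 and 8.02 and Esrra at 5.96 and 5.62 against 5.97 and 6.05. The co-activator Ppargc1a, which drives mitochondrial biogenesis, was at 5.09 and 4.94 against 4.84 and 5.31.

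In 8 related lists, compiled with results of these data known, 0 genes passed limma's adjusted threshold. Of the 38 measured assembly factors outside the rule 24 were lower, with a median of -0.086 and Nubpl (-0.37 ± 0.14), which inserts iron-sulfur clusters into complex I, and Timmdc1 (-0.29 ± 0.11) at unadjusted p under 0.05. Among 9 carriers and ATP synthase genes Coq2, an enzyme of ubiquinone synthesis, was at 6.07 and 6.25 in wild type and 5.63 and 5.53 in the null (-0.57 ± 0.12, limma unadjusted p = 0.00686, adjusted p = 0.721), and Atpif1, the ATP synthase inhibitor, was at -0.17 ± 0.11. Of 17 genes of the citric acid cycle and pyruvate dehydrogenase 15 were lower (median -0.079), with citrate synthase, Cs, at -0.24 ± 0.15, and with quantile normalization and with cyclic loess 7 were. Of 13 beta-oxidation genes 12 were lower (median -0.17), with Acads at -0.22 ± 0.11 and Acadl at -0.22 ± 0.11. Of 68 mitochondrial ribosomal proteins 47 were lower (median -0.067), 4 of them at limma unadjusted p under 0.05 and 0 higher. Mrpl39 was at 7.61 and 7.64 against 7.16 and 7.21 (-0.44 ± 0.10). At this threshold, used above for the assembly factors too, 5.41% of genes above the median level were lower and 1.23% higher. Of all genes 3.63% were lower and 3.27% higher. These lists are bright, and 67.3% of genes above the median level were lower. With cyclic loess 21 of the 38 assembly factors, 8 of the 13 beta-oxidation genes and 34 of the 68 ribosomal proteins were lower. The lists also depended on Ifrd1 null 1. Without that array 8 of the 17 citric acid cycle genes were lower (median 0.0) and 17 of the 38 assembly factors (0.005). In the same fit 38 of the 68 ribosomal proteins (-0.025) and 10 of the 13 beta-oxidation genes (-0.054) were lower.

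Import and carrier genes were lower in 13 of 16 (median -0.11), with the voltage-dependent channel Vdac3 at -0.25 ± 0.11 and the chaperone Hspa9 at -0.28 ± 0.13. With quantile normalization 10 of the 16 were lower, and with cyclic loess 8. Regulators of biogenesis were lower in 9 of 15 (median -0.037), with Gabpb1 at -0.23 ± 0.14 and Pprc1 at 0.28 ± 0.17. Glycolysis was taken beside them as the other source of ATP, with 12 of 14 genes lower (median -0.081; 9 of 14 with cyclic loess). Pkm, pyruvate kinase, was at 8.98 and 8.96 against 8.67 and 8.67 (-0.30 ± 0.10), and Hk2, a hexokinase, lay the other way at 5.61 and 5.77 against 5.98 and 6.26 (0.43 ± 0.15). Neither passed after adjustment (limma adjusted p = 0.721 for both). Without Ifrd1 null 1 the lower genes were 10 of 16 for import and carriers (median -0.034), 5 of 15 for regulators (0.17) and 10 of 14 for glycolysis (-0.033).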

How the data were processed

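Biotin-labelled total RNA from 4 pancreas samples was measured on Affymetrix arrays, per the labels' protocols. The table the authors deposited gives 1 value per row and array (0.218 to 13.9), read here as log2 from that range; background correction, summary, normalization, log base and detection calls are not given in the sources used here. Array medians were 4.08 to 4.15, and 0 value columns belonged to no sample. Of 41345 rows 23521 had exactly 1 symbol in the platform annotation, 1814 had several and 16010 had none here; the brightest row stood for each of 22180 genes, 21991 of which were found in the RefSeq table of GRCm38.p6 (names and chromosome). The number of arrays limits the precision.

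All genes were fitted with limma 3.58.1 (lmFit, eBayes) in R 4.3.3, null minus wild type, without covariates, two-sided, with Benjamini-Hochberg adjustment over all genes at 0.05. An exact permutation test of 2 against 2 cannot go below p = 0.333, so none is given. The labels call the samples biological replicates and do not state litter or cage, so p-values rest on the spread between these samples. In eBayes the spread of each gene is drawn toward a value shared by all genes. The SE, intervals and p-values use this moderated spread. The fit was tested on simulated data. Members and lists were chosen with earlier results of these data known, so lists get counts and medians and no test.

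Alternatives were quantile normalization, cyclic loess, median centring, the replicate number as a block, the mean of all rows of a gene, genes above the median level, a trend and robust eBayes, no genes on X or Y and each array left out, and, chosen after seeing the data, no genes with identical values. Replicate numbers are shared by the genotypes, and deviations of same-numbered arrays correlated at -0.0352 over genes. This value gives no sign that the numbers pair the arrays and cannot exclude it. Named genes were, per group of members, the brightest, the 3 of smallest p and the largest rise and fall, all of complex II, the Cox4i, Cox6a, Cox6b, Cox7a, Cox8 and Atp5g families, members on X, 2 genes of smallest p per related list and Ifrd1. The core subunits, the F1, stalk and membrane genes of complex V, the named assembly factors and regulators beyond that, the pseudogenes and the marker genes were chosen after their values were seen. The lists held 75 mitochondrial ribosomal, 40 assembly, 18 citric acid cycle, 17 glycolysis, 16 import, 15 regulator, 13 beta-oxidation and 11 carrier symbols, of which Usmg5 and 2010107E04Rik are members (Atp5md and Atp5mpl). The list of mitochondrially encoded subunits had no measured gene (0) and is not analysed here.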

Additional observations from a re-analysis of the deposited data

How the results depend on the processing

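No member passed the adjusted threshold in the main analysis or in any of the 13 alternatives (0 members; lowest limma adjusted p 0.473, without Ifrd1 null 1). Directions depended on the scaling. Of the 90 members 54 had a lower mean as deposited, 33 with quantile normalization and 31 with cyclic loess. In the same order 19, 8 and 7 were lower without overlap, beside 4370, 4162 and 4142 of all 22180 genes. Higher without overlap were 11, 24 and 25 members, beside 3573, 3858 and 3963 of all genes. These scalings gave medians of 0.040 and 0.042 for all members (-0.025 as deposited), 0.048 and 0.057 for complex I subunits, 0.051 and 0.061 for II, 0.019 and 0.036 for III, and 0.068 and 0.074 for V. The median of complex IV (0.080) was 0.065 with centred arrays, 0.048 above the median level, 0.064 without X and Y and 0.113 without identical values, which took V to 0.036. Members lower at unadjusted p under 0.05 (2) came to 1 with either scaling, with the replicate block and without identical values. Members higher (1) came to 0 with the mean of all rows and without X and Y. Over all genes and both directions, 1532 of 22180 were under this threshold as deposited. The count was 1148 with quantile normalization, 1153 with cyclic loess, 1218 with the block and 1242 of 19056 without identical values. It was 1511 with the mean of all rows and 1456 of 21264 without X and Y. The cause was not tested.

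Of the 42 named members, quantile normalization and cyclic loess reversed Atp5g3 (0.068, 0.074), Cox6b2 (-0.054, -0.047), Cox7a2l (0.074, 0.084), Ndufa1 (0.072, 0.081), Ndufaf8 (0.013, 0.015), Sdha (0.028, 0.036), Sdhb (0.075, 0.085) and Uqcrc1 (0.005, 0.033). Cyclic loess alone reversed Atp5b (0.002) and Cyc1 (0.008).

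Leaving out each array in turn gave 1 to 5 members lower and 0 to 1 higher at unadjusted p under 0.05, 36 to 56 with a lower mean and 24 to 47 lower without overlap, where 1 array stands for a group. The 5 came without Ifrd1 null 2, and the 36 without Ifrd1 null 1, where 4 more had equal means. Of all 22180 genes, 10949 to 11840 had a lower mean in these fits. Those lower without overlap numbered 6963 to 8494, beside 4370 with all arrays, so this background also rises where 1 array stands for a group. Medians ranged from -0.037 to 0.010 for all members, -0.057 to 0.019 for complex I subunits, -0.110 to -0.055 for assembly factors, -0.141 to 0.062 for II, -0.088 to -0.028 for III, 0.048 to 0.110 for IV and -0.050 to 0.020 for V. A sign changed for Atp5b (-0.198 to 0.030), Atp5g3 (-0.037 to 0.004), Atp5o (-0.052 to 0.699), Cox6b2 (-0.066 to 0.111), Cox7a2 (-0.023 to 0.243), Cox7a2l (-0.087 to 0.059), Ndufa1 (-0.244 to 0.234), Ndufaf4 (-0.001 to 0.217), Ndufb11 (-0.367 to 0.106), Ndufb9 (-0.051 to 0.316), Sdhb (-0.156 to 0.142), Uqcrb (-0.109 to 0.211) and Uqcrc1 (-0.252 to 0.106). A lone array is assumed to vary like the other group.

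The replicate block took the genes at unadjusted p under 0.05 from 1532 to 1218 and those past the adjusted threshold from 1 to 4, none of them a member (lowest limma adjusted p of a member 0.86). Under it Ndufa6 was no longer under the unadjusted threshold, and Cox7b and Atp5c1-ps were. Precision is limited by the number of arrays, and the deposited table gives no background level, so dim rows have no detection call.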
